A study of Citrullus lanatus with 26 samples.

Results

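Plant microRNAs are short RNAs cut by Dicer-like enzymes from hairpin precursors. They guide Argonaute proteins to transcripts that pair with them, which are then cut or translated less. Names of known families such as miR156 carry textbook targets, whereas a name such as novel_miR_46 is a working number given to a predicted microRNA in 1 study. The names described here are 45 such numbered names of watermelon (Citrullus lanatus) flesh. No sequence, precursor or target comes with them in the files used here, so none is printed and no role is given to any of them.

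The libraries come from flesh of the cultivar 97103 (subsp. vulgaris), with 3 libraries at each of 6 ages, namely 0, 1, 5, 10, 20 and 30 DAP, the unit in which the labels give fruit age. All 18 libraries share the cultivar and the tissue, no treatment is named, and the labels do not say whether the 3 libraries of an age came from separate fruits or plants. The p-values therefore rest on the spread between libraries of an age, and that spread may be technical only. The tables hold microRNA names only, so the tissue label could not be checked against marker genes. The libraries hold 62050 to 153755 counts over 208 names, of which 179 are numbered novel_miR names and 29 bear the number of a known family.

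The 45 names were chosen by their level at 30 against 0 DAP. Counts were divided by the library total to give CPM (counts scaled to a library of 1000000), the 3 libraries of an age were averaged, and log2 of the ratio was taken after adding 5 to each mean. The median of this ratio over all 208 names, -1.03, was then subtracted, and numbered names at 0.6 or more were kept. Of the 52 numbered names that reached this value, out of 179, 7 were set apart by number (novel_miR_121, novel_miR_30, novel_miR_14, novel_miR_60, novel_miR_40, novel_miR_101 and novel_miR_99), which left 45. Some names of known families reached it too, among them hbr-miR6485 (8.35) and cme-miR156g (4.51), and the rule left them out by name. The value is thus not particular to numbered names. Because 0 and 30 DAP chose the members, their levels at these ages are given as description with no test. Tests were made only among 1, 5, 10 and 20 DAP, whose libraries the choice did not use. The scaling, the filter on low counts and the estimate of spread drew on all 18 libraries, however. Libraries of 0 and 1 DAP with the same replicate number also shared deviations (correlations of 0.29, 0.81 and 0.66). The tests are therefore not fully independent of the choice.

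"Higher at 30 DAP" holds for these names relative to the median name, not in every case for their share of the library. The value of the rule ran from 0.66 to 6.78 with a median of 1.51. In plain CPM 25 of the 45 were higher at 30 than at 0 DAP and 20 were lower, down to a log2 ratio of -0.37 for novel_miR_114. Of all 208 names 40 were higher in plain CPM, or 19.2%. Just inside the threshold lay novel_miR_114 (0.66), novel_miR_70 (0.74) and novel_miR_116 (0.75), and just outside lay novel_miR_157 (0.60, by rounding), novel_miR_163 (0.59) and novel_miR_69 (0.53).

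**Figure D1:**
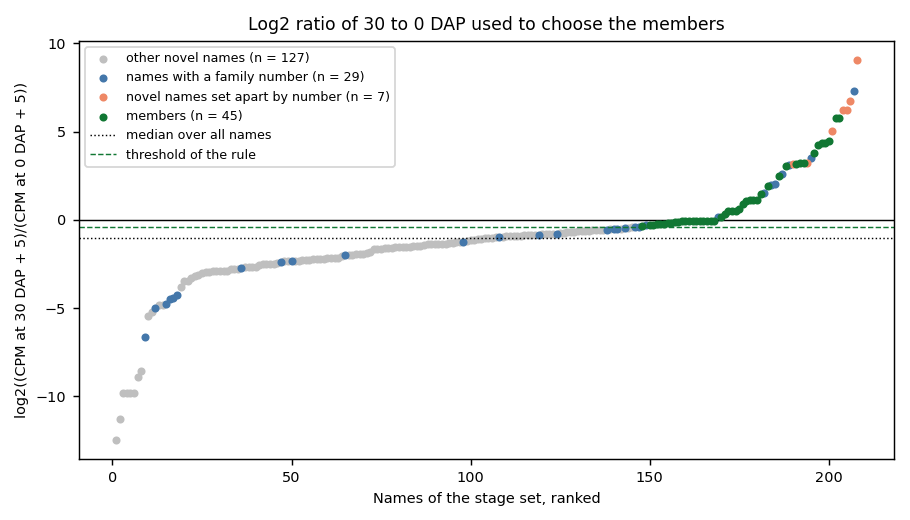
Log2 ratio of mean CPM at 30 to 0 DAP (5 added to each mean) on the vertical axis for the 208 names ranked on the horizontal axis, with points coloured by kind of name, the median over all names as a dotted line and the threshold as a dashed line. The 45 members start above the dashed line, and 20 of them lie below 0, the line of equal CPM.

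Several members share their counts and cannot be read as separate molecules. novel_miR_33, novel_miR_68, novel_miR_77, novel_miR_85, novel_miR_112, novel_miR_124, novel_miR_139, novel_miR_151 and novel_miR_169 have the same count in each of the 18 libraries and are named here the novel_miR_33 set. The same holds within the pair novel_miR_146 and novel_miR_175, and within the pair novel_miR_20 and novel_miR_161. The 45 names thus hold 35 different patterns of counts. Joining names within 0.1 of each other on the log2 scale of count plus 1 in every library (novel_miR_32, novel_miR_123 and novel_miR_135, and novel_miR_2 and novel_miR_93) leaves 32. No member shares a pattern with a name outside the group. How reads with more than 1 matching name were assigned is stated in none of the sources used.

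Levels are given as CPM scaled with trimmed-mean (TMM) factors, which set the bulk of names level between libraries. These factors ran from 1.24 to 1.39 at 0 DAP and from 0.53 to 0.70 at 30 DAP, so the scaled CPM lies below the plain CPM in young flesh and above it in the oldest. Whether the libraries of different ages overlap is read below on the scaled CPM and can differ in plain CPM. At 10 DAP the factor was 0.997 in replicate 1, against 1.31 and 1.22 in replicates 2 and 3. This raises the scaled CPM of replicate 1 relative to theirs. All 45 members passed the filter on low counts, and 204 of the 208 names did. Averaged over the 12 libraries from 1 to 20 DAP, the members spanned 79.0 CPM for the 9 names of the novel_miR_33 set to 23922 CPM for novel_miR_46. The coefficient of variation between libraries of 1 age, taken as the median over the ages, was 6.14% for novel_miR_70 and 43.7% for novel_miR_90, with a median over members of 19.4%.

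As a group the members took a growing share of the counts. They held 5.52% to 6.68% of the counts of a library at 1 DAP, 9.40% to 10.1% at 5 DAP, 15.4% to 17.6% at 10 DAP and 17.6% to 17.98% at 20 DAP. No neighbouring ages in this run overlap, although the highest library of 10 DAP and the lowest of 20 DAP both round to 17.6%. At 0 and 30 DAP, which the choice of members used, the shares were 5.85% to 5.92% and 20.4% to 22.6%. A pair of names, novel_miR_46 and novel_miR_106, held 0.68% to 0.85% at 1 DAP and 7.49% to 7.77% at 20 DAP. Without this pair the other 43 names went from 4.68% to 5.99% at 1 DAP to 9.90% to 10.2% at 20 DAP, and stood at 9.98% to 11.0% at 10 DAP. These shares need no scaling factor. A share of counts does not tell more molecules of these names from fewer molecules of the rest.

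**Figure D2:**
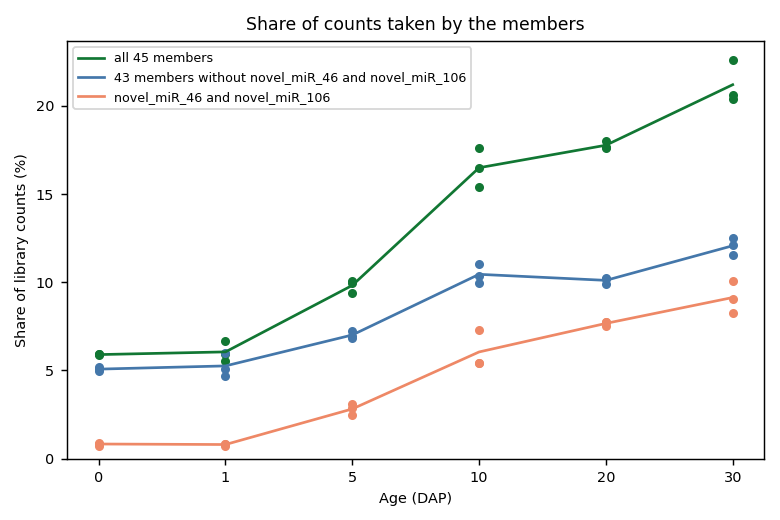
Share of library counts in percent against fruit age in DAP (ages evenly spaced), with points for the 3 libraries of an age and lines for their mean, for all 45 members, for novel_miR_46 with novel_miR_106, and for the other 43 names. The total stands at 5.52% to 6.68% at 1 DAP and at 17.6% to 17.98% at 20 DAP, and the 43 names are level between 10 and 20 DAP.

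Whether these names also differed between ages that did not choose them was asked first with 20 against 1 DAP. Of the 45 members 43 rose and none fell by edgeR's quasi-likelihood test at a Benjamini-Hochberg adjusted p under 0.05. novel_miR_46, novel_miR_146 with its copy novel_miR_175, and novel_miR_120 rose most, by 5.47, 5.27 and 5.03 on the log2 scale. novel_miR_70 and novel_miR_84 were not called. Over all 204 tested names 34.8% were higher and 36.3% lower, against 95.6% of the members higher. The median log2 fold change was 1.37 over the members and -0.10 over all tested names. No member had a value below 0, none was lower at an unadjusted p under 0.05, and DESeq2 called 43 higher and 0 lower.

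The sizes rest on the scaling. With library totals alone, without factors, the median of all names moved to -0.57 and 27 members were called higher, with 0 lower. The values of novel_miR_70, novel_miR_84 and novel_miR_116 were then below 0, at -0.30, -0.28 and -0.03. Under each of 4 scalings (TMM, RLE, no factors, and the counts of all names other than the members and the 7 set apart) 27 members, or 26 patterns, were called higher at 20 than at 1 DAP, against 19.6% of all tested names. The last of these scalings was added after the data were seen. It leaves out names chosen for a high ratio of 30 to 0 DAP, so a relative rise of the members is in part built in. The median over members was 1.62 under it and 0.91 without factors. Of the 25 names with a higher plain CPM at 30 than at 0 DAP 23 are among these 27, and of the 20 with a lower one 4 are. The split uses the 0 and 30 DAP values that chose the members, so it is description only. Plain CPM is also the scaling of the setting without factors, so the overlap is in part built in. The 25 names hold 24 patterns and the 20 hold 11, with the 9 names of the novel_miR_33 set among the 20.

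**Figure D3:**
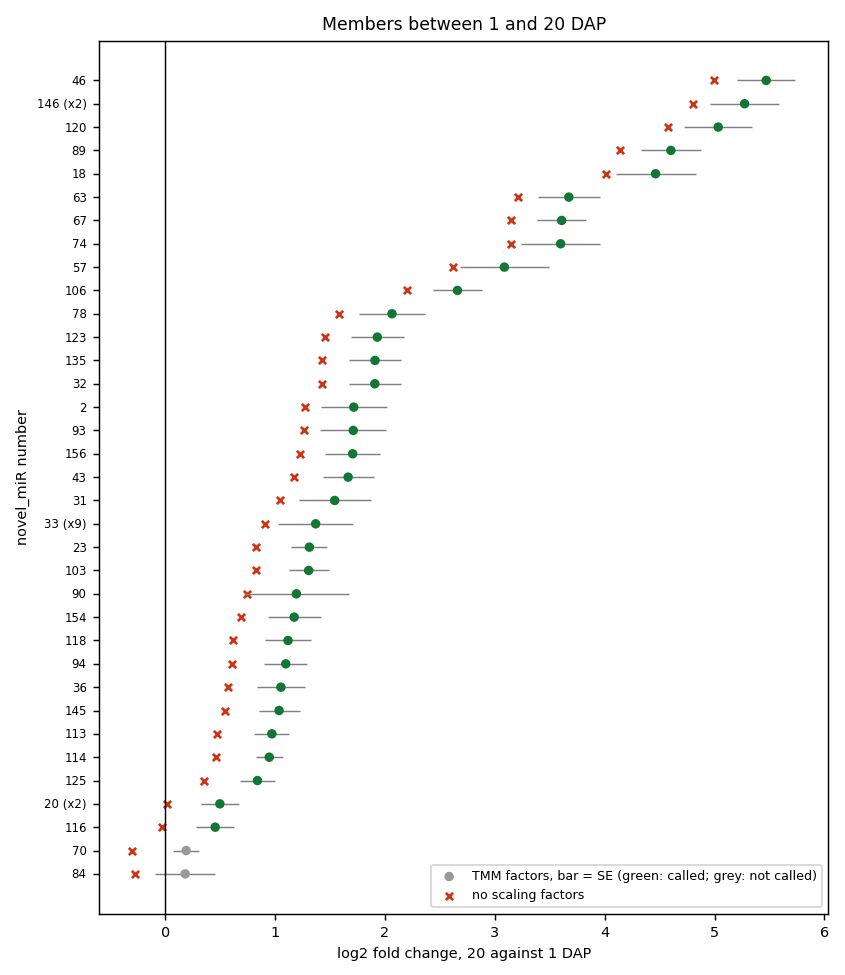
Log2 fold change at 20 against 1 DAP on the horizontal axis for each of the 35 count patterns on the vertical axis, with the number of names in brackets where a pattern has more than 1, circles and standard errors for TMM factors and crosses for no factors. The circles run from 0.18 to 5.47, and the crosses of novel_miR_116, novel_miR_70 and novel_miR_84 lie below 0.

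The rise at 20 against 1 DAP fell into broad sizes. In 11 names, or 10 patterns, it exceeded 2.5 on the log2 scale: novel_miR_46, novel_miR_146, novel_miR_175, novel_miR_120, novel_miR_89, novel_miR_18, novel_miR_63, novel_miR_67, novel_miR_74, novel_miR_57 and novel_miR_106, all called under each of the 4 scalings. In 26 names, or 18 patterns, it lay between 1 and 2.5. Of these names 15 were called under each scaling. The 9 names of the novel_miR_33 set, novel_miR_90 and novel_miR_145 were not called without factors (edgeR adjusted p = 0.0620, 0.0746 and 0.0533). In 8 names, or 7 patterns, the rise was under 1. Of these, 6 were called with TMM factors and 1, novel_miR_114, under each scaling. The bounds of these sizes were chosen after the values were seen.

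novel_miR_46, the most abundant member from 1 to 20 DAP, stood at 1431, 1137 and 1202 CPM in the 3 libraries at 0 DAP and at 1251, 1124 and 1097 at 1 DAP. It reached 14608, 17666 and 11222 CPM at 5 DAP, 40901, 22071 and 22982 at 10 DAP, and 51824, 51587 and 50737 at 20 DAP. At 30 DAP it stood at 60177, 48020 and 67981 CPM. The libraries of 0 and 1 DAP overlap, those of 20 and 30 DAP overlap, and each age between lies wholly above the one before. By edgeR's test it rose by 3.64 (SE 0.24, adjusted p = 1.07e-09) from 1 to 5 DAP, by 0.98 (SE 0.22, adjusted p = 0.00242) from 5 to 10 DAP and by 0.84 (SE 0.22, adjusted p = 0.0120) from 10 to 20 DAP. It was the 1 member called in all 3 steps. The last call was lost without replicate 2 or 3 of 10 DAP, at 0.69 and 0.71 with edgeR adjusted p-values of 0.0615 and 0.0576.

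novel_miR_106 began higher and ended as the most abundant member at 30 DAP. It stood at 5363, 4177 and 5951 CPM at 0 DAP, 5717, 3756 and 6067 at 1 DAP, and 16196, 16239 and 14539 at 5 DAP. At 10 DAP the libraries held 32057, 19268 and 21421 CPM, and at 20 DAP 29625, 35678 and 32882. The oldest flesh held 83135, 85104 and 102198 CPM, above every younger library. edgeR gave a rise of 1.60 (SE 0.21, adjusted p = 5.39e-06) from 1 to 5 DAP and of 0.63 (SE 0.21, adjusted p = 0.0223) from 5 to 10 DAP. From 10 to 20 DAP it was at 0.43 (SE 0.21), not called. Replicate 1 of 10 DAP is the high library here: without it the step from 5 to 10 DAP was 0.38 (edgeR adjusted p = 0.129) and that from 10 to 20 DAP 0.69 (edgeR adjusted p = 0.0251).

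novel_miR_89 and novel_miR_67 had the largest rises of any member from 5 to 10 DAP. novel_miR_89 stood at 515, 470 and 337 CPM at 0 DAP, 361, 237 and 400 at 1 DAP, 2883, 2371 and 2411 at 5 DAP, 11791, 6152 and 6596 at 10 DAP, 6510, 9325 and 8485 at 20 DAP, and 16740, 20372 and 20635 at 30 DAP. From 1 to 10 DAP each age lies above the one before, 10 and 20 DAP overlap, and 30 DAP lies higher again. novel_miR_67 stood at 1085, 811 and 814 CPM, then 960, 663 and 839, then 4615, 4862 and 3444 at 5 DAP, 12047, 7390 and 6895 at 10 DAP, 10056, 9546 and 10481 at 20 DAP, and 11001, 9456 and 10754 at 30 DAP. From 10 DAP on its libraries overlap. From 5 to 10 DAP edgeR gave rises of 1.68 (SE 0.23, adjusted p = 2.79e-05) for novel_miR_89 and 1.03 (SE 0.20, adjusted p = 0.000884) for novel_miR_67. From 1 to 5 DAP they rose by 2.94 and 2.39 (edgeR adjusted p = 3.45e-08 and 3.28e-08).

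novel_miR_146, with its copy novel_miR_175, and novel_miR_120 were near the limit of counting in young flesh. novel_miR_146 summed to 12 counts at 0 DAP and 21 at 1 DAP, each over 3 libraries, and to 240, 324, 369 and 598 at the later ages. In CPM it stood at 40.7, 30.3 and 12.7 at 0 DAP, 21.6, 47.3 and 58.1 at 1 DAP, 707, 497 and 606 at 5 DAP, 932, 533 and 797 at 10 DAP, 1632, 1679 and 1614 at 20 DAP, and 3401, 3059 and 4417 at 30 DAP. The libraries of 5 DAP lie far above all of 0 and 1 DAP, and those of 20 and 30 DAP each lie above every younger one. edgeR gave a rise of 3.83 (SE 0.33, adjusted p = 1.82e-08) from 1 to 5 DAP and of 1.12 (SE 0.23, adjusted p = 0.00214) from 10 to 20 DAP. From 5 to 10 DAP it was at 0.32 (SE 0.23), not called with TMM factors and called without factors (0.62, edgeR adjusted p = 0.0337).

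novel_miR_120 followed a like course at a lower level. Its libraries held 40.7, 15.2 and 25.4 CPM at 0 DAP, 21.6, 11.8 and 25.8 at 1 DAP, 357, 277 and 352 at 5 DAP, 511, 320 and 339 at 10 DAP, 655, 619 and 763 at 20 DAP, and 1063, 1259 and 1222 at 30 DAP. It had the largest rise of any member from 1 to 5 DAP, 3.99 (SE 0.32, edgeR adjusted p = 1.22e-08), and rose by 0.80 (SE 0.21, edgeR adjusted p = 0.0132) from 10 to 20 DAP. The later call was lost without factors (0.46, edgeR adjusted p = 0.0906) and without replicate 2 or 3 of 10 DAP or replicate 3 of 20 DAP (0.67 to 0.72). novel_miR_18 went from a mean of 27.3 ± 13.7 CPM at 1 DAP to 357 ± 54.1 at 5 DAP and 633 ± 98.6 at 20 DAP (SD, n = 3 each), with 3.65 (SE 0.37, edgeR adjusted p = 1.6e-07) for the first step.

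novel_miR_63 and novel_miR_78 had the largest rises from 10 to 20 DAP. novel_miR_63 stood at 67.8, 30.3 and 121 CPM at 0 DAP, 178, 71.0 and 110 at 1 DAP, 183, 241 and 202 at 5 DAP, 323, 353 and 312 at 10 DAP, 1461, 1812 and 1388 at 20 DAP, and 2161, 2179 and 2252 at 30 DAP. From 1 DAP on each age lies above the one before without overlap. Its step from 10 to 20 DAP was 2.23 (SE 0.26, edgeR adjusted p = 3.72e-06). The step from 1 to 5 DAP, 0.79 (SE 0.32, edgeR adjusted p = 0.0451), lost its call under RLE factors, without factors, without the filter and without any 1 of several libraries.

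novel_miR_78 stood at 163, 129 and 95.4 CPM at 0 DAP, 183, 189 and 103 at 1 DAP, 238, 248 and 419 at 5 DAP, 233, 186 and 372 at 10 DAP, 726, 766 and 503 at 20 DAP, and 602, 520 and 663 at 30 DAP. The libraries of 5 and 10 DAP overlap, as do those of 20 and 30 DAP, and every library of 20 and 30 DAP lies above every library of the 4 younger ages. The step from 10 to 20 DAP was 1.34 (SE 0.29, edgeR adjusted p = 0.00277), and that from 1 to 5 DAP 0.91 (SE 0.31, edgeR adjusted p = 0.0186). Without factors the earlier step was not called (0.47, edgeR adjusted p = 0.189), nor without replicate 3 of 1 DAP or replicate 3 of 5 DAP (0.69 and 0.56).

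novel_miR_125 and novel_miR_84 are abundant members that differed by less than 1 on the log2 scale at 20 against 1 DAP. novel_miR_125 held 5783, 6171 and 6752 CPM at 0 DAP, 7049, 9009 and 6913 at 1 DAP, 7276, 6196 and 7756 at 5 DAP, 8889, 12437 and 10720 at 10 DAP, 13614, 13685 and 13760 at 20 DAP, and 19309, 20571 and 13896 at 30 DAP. Its 1 called step was that from 5 to 10 DAP, 0.59 (SE 0.16, edgeR adjusted p = 0.00957), which was lost without replicate 2 of 10 DAP (0.47, edgeR adjusted p = 0.0582). At 20 against 1 DAP it was at 0.84 (SE 0.16, edgeR adjusted p = 0.000178), and without factors at 0.35, not called. Without factors it was called lower from 1 to 5 DAP, at -0.57 (edgeR adjusted p = 0.0322), where TMM factors gave -0.11 with no call.

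novel_miR_84 held 8014, 4791 and 6936 CPM at 0 DAP, 7049, 3715 and 5816 at 1 DAP, 8388, 10206 and 6341 at 5 DAP, 9836, 5959 and 4590 at 10 DAP, 6187, 6261 and 6334 at 20 DAP, and 10381, 10536 and 14158 at 30 DAP. On this scaled CPM all neighbouring ages up to 20 DAP overlap, and the libraries of 30 DAP lie above every younger one. That order rests on the TMM factors. In plain CPM the mean of novel_miR_84 was 8409 at 0 DAP and 7123 at 30 DAP, a log2 ratio of -0.24. No contrast among 1 to 20 DAP was called by the main edgeR fit (TMM factors, all 18 libraries, no replicate block). In that fit 20 against 1 DAP stood at 0.18 (SE 0.27, edgeR adjusted p = 0.571). With a replicate block 5 against 1 DAP was called higher, as given in the last section. The test of any difference among these ages did not pass either (edgeR adjusted p = 0.230). novel_miR_70, likewise not called at 0.19 (SE 0.12), had mean levels of 3407 ± 466 CPM at 1 DAP and 3882 ± 136 at 20 DAP (SD, n = 3 each), and was called without replicate 2 of 1 DAP (0.27, edgeR adjusted p = 0.0350). Those were the 2 members for which the test of any difference did not pass. It passed for 43 of 45, against 81.9% of all tested names.

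novel_miR_90 was the 1 member called lower in any step by the main edgeR fit (TMM factors, all 18 libraries, no replicate block). It held 658, 296 and 674 CPM at 0 DAP, 367, 112 and 387 at 1 DAP, 1477, 1611 and 1190 at 5 DAP, 985, 366 and 604 at 10 DAP, 413, 899 and 711 at 20 DAP, and 779, 680 and 1641 at 30 DAP. The libraries of 5 DAP lie above all of 1 and 10 DAP, and those of 10, 20 and 30 DAP overlap. edgeR gave a rise of 2.30 (SE 0.44, adjusted p = 0.000353) from 1 to 5 DAP and a change of -1.14 (SE 0.42, adjusted p = 0.0375) from 5 to 10 DAP. The fall was not called under RLE factors (-1.07), with DESeq2 (-1.07) or in the 12 libraries of 1 to 20 DAP alone (-1.09). Its value at 20 against 1 DAP, 1.19 (SE 0.48, edgeR adjusted p = 0.0328), was lost without factors (0.75, edgeR adjusted p = 0.0746) and without replicate 2 of 1 DAP (0.76, edgeR adjusted p = 0.159), the lowest library of that age.

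**Figure D4:**
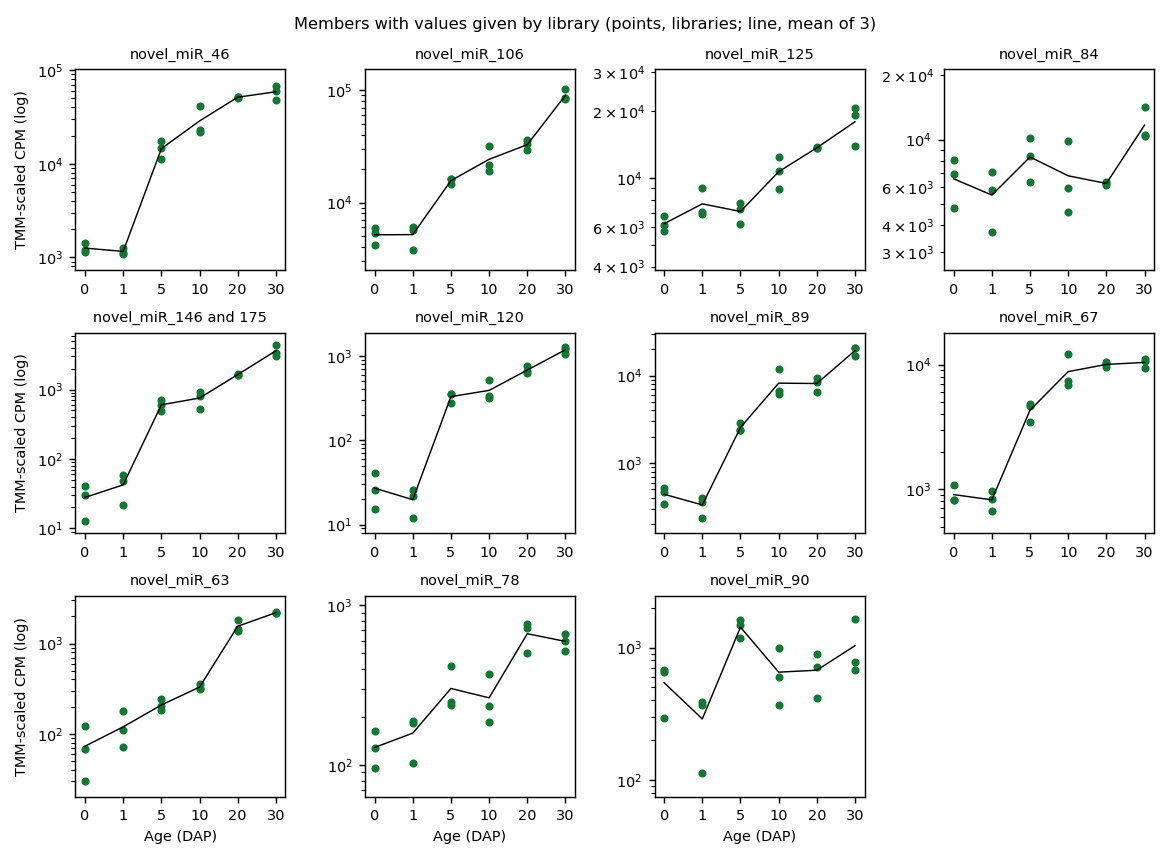
TMM-scaled CPM on a log axis against fruit age in DAP (ages evenly spaced) for the members given by library, 1 panel each, with points for libraries and a line for the mean of 3. novel_miR_46, novel_miR_106, novel_miR_89, novel_miR_67, novel_miR_120 and novel_miR_146 step up between 1 and 5 DAP, novel_miR_63 and novel_miR_78 between 10 and 20 DAP, and novel_miR_90 is highest at 5 DAP.

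The steps between neighbouring ages are given in turn, and the step in which a name is called depends in part on the scaling. Each step shares an age with the next, so their counts are given side by side and not set against each other. From 1 to 5 DAP 32 members, or 23 patterns, rose and none fell, or 71.1% of members, against 27.5% of all tested names higher and 26.0% lower. Their median log2 fold change was 1.32, and that of all tested names -0.01. None was lower at an unadjusted p under 0.05, and DESeq2 called 30 higher and 0 lower. Under each of the 4 scalings 25 members, or 16 patterns, were called higher, against 19.1% of all tested names. Without factors novel_miR_125 and novel_miR_145 were called lower, which TMM factors gave at -0.11 and -0.20 without a call. Without replicate 3 of 5 DAP 18 members were called, and the 9 names of the novel_miR_33 set were among those lost, at 1.02 with an edgeR adjusted p of 0.0623.

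From 5 to 10 DAP 13 members rose and 1 fell, or 28.9% of members higher, against 11.3% of all tested names higher and 27.5% lower. The median over members was 0.44 and that over all tested names -0.07, and 10 members lay below 0. At an unadjusted p under 0.05 3 members were lower, novel_miR_2, novel_miR_90 and novel_miR_93, and DESeq2 called 16 higher and 0 lower. The 13 were novel_miR_46, novel_miR_106, novel_miR_89, novel_miR_67, novel_miR_23, novel_miR_43, novel_miR_156, novel_miR_118, novel_miR_125, novel_miR_145, novel_miR_94, novel_miR_20 and novel_miR_161, and all 13 were called under each of the 4 scalings, against 11.3% of all tested names. Without factors 33 members were called higher and 1 lower, with the median of all names at 0.25. Scaled to the counts of all other names 34 were called higher and 0 lower, with that median at 0.34. Of all 204 tested names 98 and 105 were called in either direction in these settings. Leaving out replicate 2 of 10 DAP left 7 members called, and leaving out replicate 3 of that age left 9.

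From 10 to 20 DAP 9 members rose and none fell, or 20.0% of members, against 9.31% of all tested names higher and 10.3% lower. They were novel_miR_46, novel_miR_146, novel_miR_175, novel_miR_120, novel_miR_63, novel_miR_78, novel_miR_113, novel_miR_114 and novel_miR_156. Under each of the 4 scalings 5 of them, novel_miR_46, novel_miR_146, novel_miR_175, novel_miR_63 and novel_miR_78, were called, against 6.86% of all tested names. The median over members was 0.19 with TMM factors and -0.14 without factors. None was lower at an unadjusted p under 0.05. DESeq2 called 16 higher and 0 lower, and 5 were called without replicate 2 of 10 DAP or without replicate 3 of 20 DAP.

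By step calls, 27 members rose in 1 of the 3 steps, 12 in 2 and 1 in all 3, and 5 were called in no step. The largest class, with 19 names, was called only from 1 to 5 DAP by the main edgeR fit, without a replicate block. It holds the 9 names of the novel_miR_33 set, the near copies novel_miR_32, novel_miR_123 and novel_miR_135, the near copies novel_miR_2 and novel_miR_93, and novel_miR_18, novel_miR_36, novel_miR_57, novel_miR_74 and novel_miR_103. A step without a call is not shown to be without a change, and no difference between steps was tested. Of those called in no step, novel_miR_31, novel_miR_116 and novel_miR_154 were called at 20 against 1 DAP, and novel_miR_70 and novel_miR_84 were not.

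The groups of copies show 3 different courses, and they were picked for this after their values were seen. The 9 names of the novel_miR_33 set rest on few counts, summing over an age's libraries to 16 at 0 DAP and to 17, 34, 50, 20 and 12 at the later ages. They stood at 27.1, 45.5 and 38.1 CPM at 0 DAP, 32.4, 35.5 and 32.3 at 1 DAP, 55.6, 85.2 and 112 at 5 DAP, 113, 113 and 120 at 10 DAP, 121, 58.9 and 69.4 at 20 DAP, and 88.6, 59.97 and 69.8 at 30 DAP. They were thus highest on average at 10 DAP, at 115 ± 3.80 CPM (SD, n = 3), and were called higher at 20 against 1 DAP with TMM factors (1.37, SE 0.34, edgeR adjusted p = 0.00492). That call was lost without factors (0.91, edgeR adjusted p = 0.0620) and without replicate 1 of 20 DAP (0.97, edgeR adjusted p = 0.162). Since these 9 names carry 1 pattern of counts, they stand in every count of members above as 9 and in the counts of patterns as 1.

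The near copies novel_miR_32, novel_miR_123 and novel_miR_135 reached their late level by 5 DAP. novel_miR_123 stood at 732, 675 and 604 CPM at 0 DAP, 793, 769 and 671 at 1 DAP, 3686, 3939 and 2396 at 5 DAP, 4016, 2563 and 2737 at 10 DAP, 3094, 2622 and 2794 at 20 DAP, and 3136, 1999 and 3945 at 30 DAP. From 5 DAP on all ages overlap, and every library from 5 DAP lies above every younger one. The step from 1 to 5 DAP was 2.16 (SE 0.24, edgeR adjusted p = 4.12e-07), and the values of the following steps, -0.11 and -0.13, were not called.

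The near copies novel_miR_2 and novel_miR_93 instead stood out in the oldest flesh. novel_miR_93 held 1600, 1289 and 2212 CPM at 0 DAP, 2033, 1100 and 2698 at 1 DAP, 6148, 5124 and 6820 at 5 DAP, 5264, 2903 and 2843 at 10 DAP, 7275, 6364 and 5396 at 20 DAP, and 25881, 33546 and 40502 at 30 DAP. All 3 libraries of 30 DAP lie above every other library. edgeR gave a rise of 1.63 (SE 0.30, adjusted p = 0.000205) from 1 to 5 DAP. From 5 to 10 DAP it was at -0.72 (SE 0.29) and from 10 to 20 DAP at 0.79 (SE 0.29), neither called, with edgeR adjusted p-values of 0.0585 and 0.0667. Without replicate 1 of 10 DAP, the high library of that age, both were called, at -1.07 and 1.15 (edgeR adjusted p = 0.00937 and 0.0122). Both were also called without replicate 2 of 1 DAP, at -0.66 and 0.76 (edgeR adjusted p = 0.0402 and 0.0363), and without replicate 3 of 1 DAP, at -0.72 and 0.79 (edgeR adjusted p = 0.0406 and 0.0477). With a replicate block both steps were called as well, as given in the last section.

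Each member's mean was highest at 5 DAP or later, a description in part fixed by the rule. Of the 45 names 4 had their highest mean at 5 DAP (novel_miR_32, novel_miR_123, novel_miR_135 and novel_miR_90), 11 at 10 DAP (novel_miR_57, novel_miR_118 and the 9 names of the novel_miR_33 set), 10 at 20 DAP and 20 at 30 DAP. The names with their highest mean at 20 DAP were novel_miR_20, novel_miR_161, novel_miR_116, novel_miR_23, novel_miR_31, novel_miR_43, novel_miR_78, novel_miR_103, novel_miR_113 and novel_miR_114. novel_miR_103 went from 928 CPM at 1 DAP to 2302 at 20 DAP and 1649 at 30 DAP, and novel_miR_114 from 2645 to 5092 and 3824. This order rests on TMM factors, which differ most between 30 DAP and the other ages.

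**Figure D5:**
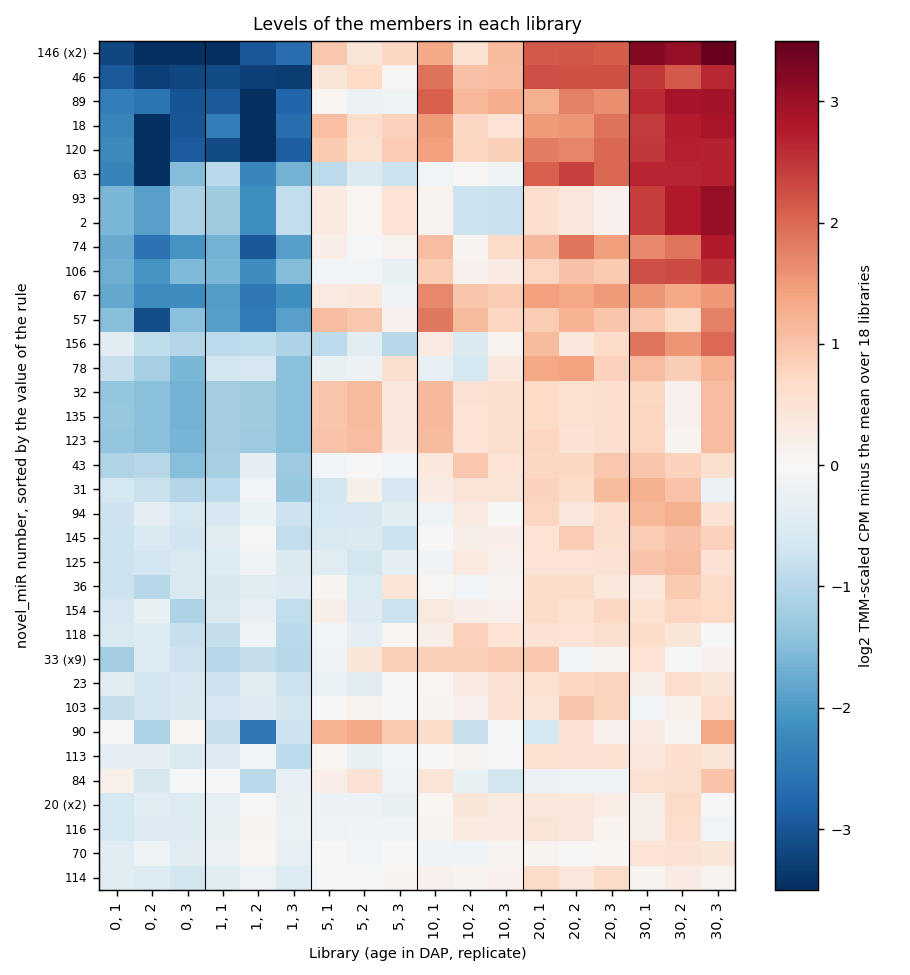
Log2 TMM-scaled CPM of each of the 35 count patterns (vertical axis, sorted by the value of the rule) in each of the 18 libraries (horizontal axis, age in DAP and replicate), as the difference from the pattern's mean over all libraries, with red above and blue below. Most upper rows leave deep blue between 1 and 5 DAP, novel_miR_63 does so later, and most of the lower rows stay pale throughout; colours are capped at the ends of the scale.

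The libraries of an age did not order the members alike. Over the 35 patterns replicate 1 of 10 DAP was the highest of its 3 libraries in 19 and the lowest in 11, and replicate 3 of 1 DAP was the lowest in 19. Fewer calls at a step without 1 library of 10 DAP are given with that step above. The phloem-mobile microRNA families (miR395, miR398, miR399, miR827 and miR2111), taken as a list for another tissue, have 1 name here, cme-miR2111a. It stood at 71.0 to 200 CPM at 1 DAP, 355 to 659 at 5 DAP, 573 to 1151 at 10 DAP and 590 to 781 at 20 DAP. At the ages that chose the members it stood at 81.4 to 89.0 CPM at 0 DAP and 1060 to 2112 at 30 DAP. It rose by 1.76 (SE 0.37, edgeR adjusted p = 0.000898) from 1 to 5 DAP and by 2.31 (SE 0.38, edgeR adjusted p = 3.62e-05) from 1 to 20 DAP. Its part in the rise of the members was not tested, and the amount of phloem was not measured. In flesh of mixed tissues a change in the number of cells of a type cannot be told apart from a change in RNA per cell.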

How the data were processed

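The protocol given with the libraries names Trizol for extraction from flesh, a gel cut of the fraction below 100 nt and Illumina small RNA library preparation. The tools listed in the submitters' processing notes are fastp and BWA, with no role or version. Neither genome build nor microRNA reference nor counting rule is given in these sources. The deposited tables hold whole-number counts per name, 1 library each, with no normalization. The 8 libraries of the genotype set were not used, since no sequence ties their numbered names to these. The members and lists were chosen with earlier results of these data known.

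Counts of the 18 libraries were fitted with edgeR 4.0.16 in R 4.3.3 (filterByExpr, minimum count 10, TMM factors, quasi-likelihood F test on age means). p-values were adjusted over all 204 tested names. The SE is the log2 fold change divided by the square root of F. DESeq2 1.42.0, other scalings and filters, a replicate block and leaving out each library were alternatives. Library totals of 62050 to 153755 limit precision at low levels. Values by library are given for the 4 most abundant members from 1 to 20 DAP, the 4 called with the largest rise at 20 against 1 DAP, the 2 called with the largest rise in each step, and up to 3 called with the largest fall, of which there was 1. Others given by library are said to be chosen after their values were seen.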

Additional observations from a re-analysis of the deposited data

How the results depend on the processing

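Of 180 log2 fold changes (45 members in 4 contrasts among 1 to 20 DAP), recomputed under 27 other settings in 4784 comparisons, 4319 kept their sign and their side of the threshold, 176 lost a call and 159 gained one. In 127 an uncalled value took the other sign and stayed uncalled. These came from 33 values, none over 0.41 in size, and most often from the setting without factors. Of the called values 3 took the other sign, each without factors and without a call there: novel_miR_114 (-0.10) and novel_miR_23 (-0.038) at 5 against 1 DAP, and novel_miR_116 (-0.033) at 20 against 1 DAP. The settings were RLE factors, no factors, no filter, a minimum count of 30 (which leaves out the 9 names of the novel_miR_33 set), DESeq2, the 12 libraries of 1 to 20 DAP alone, 1 name per count pattern, the replicate block, each library left out and, added after seeing the data, scaling to the counts of all other names.

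Without factors the members called numbered 34 at 10 against 5 DAP, 33 higher and 1 lower. They numbered 5 at 20 against 10 DAP and 27 at 20 against 1 DAP. At these contrasts 98, 70 and 144 of all 204 tested names were called in either direction. Scaled to the counts of all other names 34 members were called at 10 against 5 DAP, all higher, against 105 of all 204 tested names. At 20 against 10 DAP DESeq2 called 16. With 1 library left out the calls ran from 18 to 34 at 5 against 1 DAP, 7 to 20 at 10 against 5 DAP, 5 to 14 at 20 against 10 DAP, 33 to 43 at 20 against 1 DAP and 43 to 43 for any difference. Without replicate 2 of 1 DAP 14 were called at 20 against 10 DAP. Where the construction of a setting does not show the cause, it was not tested.

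Of 45 pairs of libraries with the same number, over all 6 ages, 18 had deviations correlated over 0.1 (-0.32 to 0.81, median -0.03). Of 18 libraries 9 correlated best with their own number. Between none of the ages tested (1, 5, 10 and 20 DAP) did all 3 same-number pairs lie over 0.1. With 3 libraries an age this does not exclude pairing. Between 0 and 1 DAP all 3 pairs lay over 0.1 (0.29, 0.81 and 0.66), and between 1 and 10 DAP replicates 1 and 2 did (0.62 and 0.70) and replicate 3 did not (-0.18). With the replicate block 15 members were called at 20 against 10 DAP, 34 at 5 against 1 DAP, 17 at 10 against 5 DAP (14 higher and 3 lower), 43 at 20 against 1 DAP and 43 for any difference. The additional lower calls were novel_miR_2 and novel_miR_93, both at -0.72 with edgeR adjusted p-values of 0.0337 and 0.0341. Both were also called higher with the block at 20 against 10 DAP, at 0.82 (edgeR adjusted p = 0.0336), and novel_miR_84 at 5 against 1 DAP, at 0.63 (edgeR adjusted p = 0.0472). The rule itself kept all 45 names on TMM-scaled CPM (48 names) and with 1 in place of 5 (47), and 19 without subtracting the median. Low counts limit the novel_miR_33 set at every age, with sums from 12 at 30 DAP to 50 at 10 DAP. They limit novel_miR_18, novel_miR_120 and novel_miR_146 in young flesh.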
